A study of Mus musculus with 28 samples.

Results

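The genes described here are 10 members of the BCL-2 family, which sets the threshold for cell death at the mitochondrial outer membrane. They were taken by mouse Ensembl gene ID from a table of 30608 genes, and all 10 were among the 14828 genes with enough reads to test. By role they are the pro-survival genes Bcl2, Bcl2l1 (BCL-XL) and Mcl1, the BH3-only genes Bid, Bcl2l11 (BIM), Bad and Pmaip1 (NOXA), the pore-forming genes Bax and Bak1, and Bcl2l15 (BFK), a family member whose role is less settled. RNA was sequenced from CTLL2 cells, an established mouse cytotoxic T-cell line of C57BL/6 origin that needs interleukin-2 to survive. Exosomes are small vesicles released by cells, and the ones used here came from B16F0 mouse melanoma cells. Exosome-treated cells received fresh medium with fresh B16F0 exosomes in PBS at 0.2 mg/ml and were collected 0.5, 2, 4 and 8 h later, with 3 libraries at each time. Untreated cells received fresh medium alone and were collected at 0.5, 2, 4 and 8 h, with 3 libraries at each time, and at 0 h, with 4 libraries. None of the 9 groups is labelled as receiving PBS without exosomes. Each group holds 1 library of batch 1 and the rest of batch 2, as the sample descriptions name them. The submitters call the replicates biological. All come from 1 cell line, so the spread is between cultures of that line.

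Pro-survival members hold the other members in check by binding them. BH3-only members respond to stress, loss of growth factor or death receptor signals and either occupy the pro-survival members or activate BAX and BAK, which then open the outer membrane and release cytochrome c. In T cells, interleukin-2 and related cytokines keep Bcl2 and Mcl1 transcribed, and BIM is the BH3-only protein best known for ending T-cell responses. MCL1 and NOXA proteins are short-lived and are controlled after transcription as well, which a transcript count cannot show.

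Values are normalized read counts, that is, reads divided by 1 size factor per library. Between 6072984 and 24085812 reads per library were recovered from the values. All 12 T-cell markers examined (among them Cd3e, Cd8a, Lck and Gzmb) had reads, and their summed level lay between 101655 and 164170 in every library. Melanocyte markers, the cell type of the exosome source, summed to 89.7 to 332 in exosome-treated libraries and 41.8 to 167 in untreated libraries. Within batch 1 they summed to 89.7 to 170 with exosomes and 41.8 to 82.8 without. Within batch 2 they summed to 206 to 332 with exosomes and 112 to 167 without. Of these markers, Gpnmb (29.9 to 167), Dct (0.849 to 35.3) and Pmel (3.19 to 17.6) had reads in every library. All 9 markers had reads in each exosome-treated group, and 4 to 6 of the 9 in each untreated group. Of the 8 skeletal muscle markers examined, Ckm (398 to 1042), Mylpf (105 to 354) and Actn3 (5.67 to 133) had reads in every library. All 8 markers summed to 518 to 3083. Below, muscle transcripts means only Tnnt3, Myh1 and Myh4 of fast skeletal muscle, summed. These transcripts were at 191 to 1115 in 8 libraries and at 6.03 or less in the other 20. These 8 were exosome 0.5 h replicates 1 and 3, exosome 2 h replicate 2, exosome 4 h replicates 1 and 2, untreated 2 h replicate 2 and untreated 8 h replicates 1 and 2. Untreated 4 h replicate 1 and exosome 8 h replicate 3 stood apart with 15.7% and 22.0% of genes at 0, against 27.8% to 39.9% in the other 26. In bulk RNA a change in the make-up of the cells and a change per cell cannot be told apart.

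The sequences upstream of 4 members (Bcl2, Bcl2l1, Bcl2l11 and Bid) are shown because these members changed with time in both arms. Bid also gave the only exosome call, which was near the threshold. The sequences are the RefSeq bases before each gene's outermost start, trimmed to lie outside the gene's own exons. They are on build GRCm38.p6 and written along the gene's strand. Where a gene has several starts, only the window at its outermost start was searched. Capitals mark matches, on either strand, to GTAAACA (the core bound by FOXO factors), TTCNNNGAA (the STAT core) and GGGCGG (the GC box).
Bcl2, chr1:106714291-106714540, minus strand: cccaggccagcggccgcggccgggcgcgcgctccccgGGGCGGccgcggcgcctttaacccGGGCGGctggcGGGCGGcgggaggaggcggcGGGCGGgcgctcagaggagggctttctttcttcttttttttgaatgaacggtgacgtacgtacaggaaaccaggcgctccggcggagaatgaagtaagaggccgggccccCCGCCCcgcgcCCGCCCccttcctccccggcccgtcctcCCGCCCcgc
Bcl2l1, chr2:152831729-152831978, minus strand: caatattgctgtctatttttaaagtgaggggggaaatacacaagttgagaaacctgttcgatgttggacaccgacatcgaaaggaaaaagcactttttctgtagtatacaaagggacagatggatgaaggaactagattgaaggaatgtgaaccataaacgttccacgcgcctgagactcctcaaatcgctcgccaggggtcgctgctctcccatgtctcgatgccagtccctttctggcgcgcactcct
Bcl2l11, chr2:128125788-128126037, plus strand: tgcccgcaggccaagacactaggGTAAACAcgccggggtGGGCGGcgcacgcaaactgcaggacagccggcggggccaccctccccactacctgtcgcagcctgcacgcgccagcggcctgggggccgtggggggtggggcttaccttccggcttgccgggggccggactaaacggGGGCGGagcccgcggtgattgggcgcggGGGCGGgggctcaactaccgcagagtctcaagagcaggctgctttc
Bid, chr6:120916854-120917074, minus strand: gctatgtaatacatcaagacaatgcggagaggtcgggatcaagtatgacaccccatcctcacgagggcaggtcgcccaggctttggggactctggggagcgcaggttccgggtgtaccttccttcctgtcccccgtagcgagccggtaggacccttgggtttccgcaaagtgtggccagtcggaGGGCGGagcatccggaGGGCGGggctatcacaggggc

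The 4 windows differ in base composition. The Bcl2 window is 74.8% G and C and holds 7 GC boxes, the Bcl2l11 window is 72.0% with 3, the Bid window is 62.4% with 2, and the Bcl2l1 window is 47.6% with none. The Bcl2l11 window holds 1 FOXO core, a motif found in 3.17% of 32851 upstream windows of 250 bases. No STAT core, present in 7.02% of those windows, was found in the 4 shown, and the GC box was present in 32.7%. A match is a run of letters, and neither a match nor its absence says whether a factor binds.

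To compare the members by level, values were divided by the joint length of all annotated exons of each gene. That length can exceed the transcripts made in these cells, which was not examined, so orders between genes hold on this scale only. Bax (mean over the 28 libraries 1167 normalized counts per kb), Mcl1 (1160 per kb) and Bak1 (1091 per kb) had the highest means. On this scale both pore-forming genes stood level with the most abundant pro-survival gene. Bax was above Mcl1 in 17 of 28 libraries and Mcl1 above Bak1 in 15 of 28, so these neighbours did not keep an order. Bak1 was above Pmaip1 in all 28 libraries, by 1.29 to 2.80 times. Pmaip1 (514 per kb), Bid (475 per kb) and Bcl2 (475 per kb) also changed places between libraries, with Bid above Bcl2 in 12 of 28. Lower means were those of Bcl2l11 (326 per kb), Bcl2l1 (174 per kb) and Bad (143 per kb). Bcl2 was above Bcl2l11 in 20 of 28 libraries, and by group Bcl2l11 ranked above Bcl2 at 4 h in both arms. Bcl2l11 was above Bcl2l1 in 26 of 28 libraries and Bcl2l1 above Bad in 24 of 28. Bcl2l15 was at 2.30 per kb, with 1 to 23 reads in a library and 187 reads in all, and was lower than Bad in all 28 libraries. Exons of Bid, Bad, Bak1 and Bcl2 overlap a gene on the opposite strand (Bcl2l13, Gpr137, Ggnbp1 and D630008O14Rik in that order), and those of Bax and Bcl2l15 overlap Gm45808 and Gm43064 on the same strand. Whether counting used the strand is not given in the sources used here, which matters for the overlaps on opposite strands. All 6 levels may hold reads of the neighbour, or lack reads that fell on both genes.

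**Figure D1:**
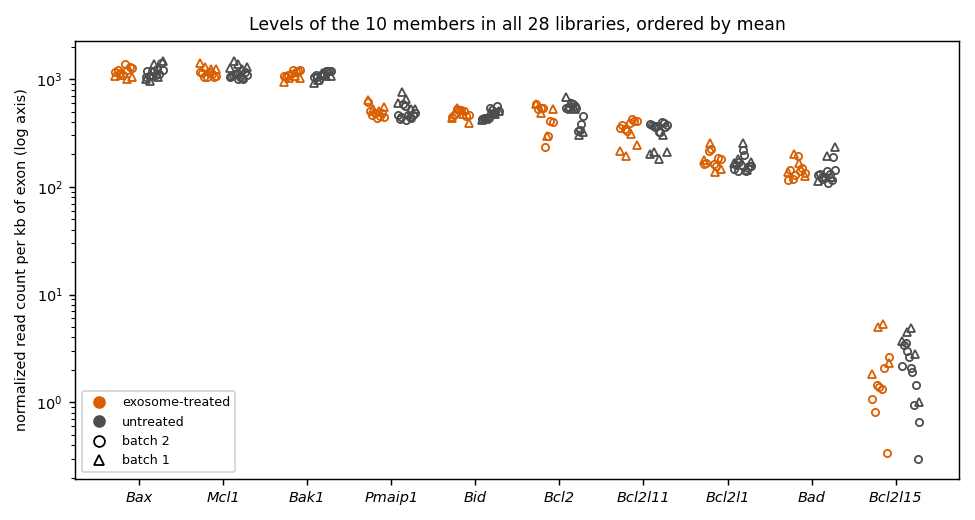
Normalized read count per kb of exon (vertical log axis) of the 10 members in every library, ordered by mean, exosome-treated libraries to the left of untreated ones, with triangles for batch 1 and circles for batch 2. Bax, Mcl1 and Bak1 lie together at the top, and Bcl2l15 lies lowest, at a mean of 2.30.

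With exosome treatment 1 member was called at a single time, Bid at 8 h. Bid encodes a BH3-only protein that caspase-8 cleaves after death receptor signals and that granzyme B also cleaves. At 8 h, Bid was at 1398, 1627 and 1662 normalized counts in exosome-treated cells, against 1814, 2005 and 1785 in untreated cells. All 3 exosome-treated libraries were below all 3 untreated ones. The means were 1562 ± 144 with exosomes and 1868 ± 120 without (SD, n = 3 each), a log2 difference of -0.26 ± 0.06 (SE; limma, Benjamini-Hochberg adjusted p over all genes 0.0427). At 8 h this was 1 of 10 members called, against 0.452% of all genes called in either direction and 0.0607% called lower. With only genes at 100 or more normalized counts tested, limma called 0 genes at 8 h, and Bid had an adjusted p of 0.073. The difference had the same sign in both batches, with log2 values of -0.38 in batch 1, which has 1 library per group, and -0.20 in batch 2.

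The Bid call was near the threshold. With batch 2 alone its adjusted p was 0.379 and the log2 difference -0.20 ± 0.06, and with only the 2 groups in the fit the adjusted p was 0.284. The untreated 8 h libraries 1 and 2 hold muscle transcripts (539 and 525 for the 3 genes summed) while the exosome 8 h libraries hold little. Without the 8 libraries with muscle transcripts the log2 difference was -0.17 ± 0.08, against -0.26 with all libraries. In that fit 1 untreated 8 h library remained. The part of muscle transcripts in the Bid difference was not tested further. Leaving out 1 library at a time moved the adjusted p between 0.0027 and 0.363 and ended the call in 18 of 28 cases. In 14 of those it was 0.0518 to 0.0596 and the omitted library belonged to another time; without untreated 8 h replicate 1 it was 0.144, without untreated 8 h replicate 2 it was 0.297, without exosome 8 h replicate 1 it was 0.363 and without exosome 8 h replicate 2 it was 0.074.

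At 0.5, 2 and 4 h no member was called, while 0.243%, 0.189% and 0.155% of all genes were. With only genes at 100 or more normalized counts tested, 1, 0 and 0 genes were called at these times. Over the 4 times, 40 tests of members gave 1 call, and 5 had an unadjusted p below 0.05. Bad, a BH3-only gene whose protein is held inactive by growth factor kinases, gave a pair of these. At 4 h Bad was at 494, 424 and 361 in exosome-treated cells, against 334, 317 and 297 in untreated cells (log2 difference 0.42 ± 0.17, adjusted p = 0.920). At 8 h it was at 319.9, 385 and 340.2 in exosome-treated cells, against 595, 487 and 368 in untreated cells (log2 difference -0.45 ± 0.17, adjusted p = 0.109). The groups did not overlap at 4 h and overlapped at 8 h, and the sign of the Bad difference was opposite at the 2 times. The 4 highest Bad libraries at 4 h and 8 h were untreated 8 h replicate 1, exosome 4 h replicate 1, untreated 8 h replicate 2 and exosome 4 h replicate 2, and all 4 hold muscle transcripts. At 2 h the highest Bad libraries were exosome replicate 2, at 512 with muscle transcripts at 607, and untreated replicate 1, at 497 with muscle transcripts at 0. The part of muscle transcripts in these Bad values was not tested. Bcl2l15 gave the other 2, at 0.5 h and 8 h, at levels of a few reads. It was at 4.98, 2.93 and 2.21 in exosome-treated cells at 0.5 h, against 12.3, 8.04 and 7.11 in untreated cells (log2 difference -1.23 ± 0.41, adjusted p = 0.728).

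The average of the 4 exosome effects gave the narrowest intervals. No member was called, against 0.459% of genes, and the smallest adjusted p among the members was 0.973. Testing only genes at 100 or more normalized counts gave 8 calls over all genes. For the 9 members other than Bcl2l15 the mean log2 effect lay between -0.04 and 0.07. Their 95% intervals ran from -0.16 at the lowest to 0.20 at the highest, so an average change beyond those bounds lay outside the interval of every one of the 9. The interval for Mcl1 was the tightest, from -0.05 to 0.07, and that for Bak1 ran from -0.07 to 0.05. A test of whether the exosome effect differed between times called no gene at all, members included (0% of genes; 1873 genes and 3 members, Bid, Bad and Bcl2l15, had an unadjusted p below 0.05). edgeR likewise called none and DESeq2 called 5 genes, no member among them. The effect in batch 2 minus that in batch 1 was called for no member, against 0.0337% of genes.

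**Figure D2:**
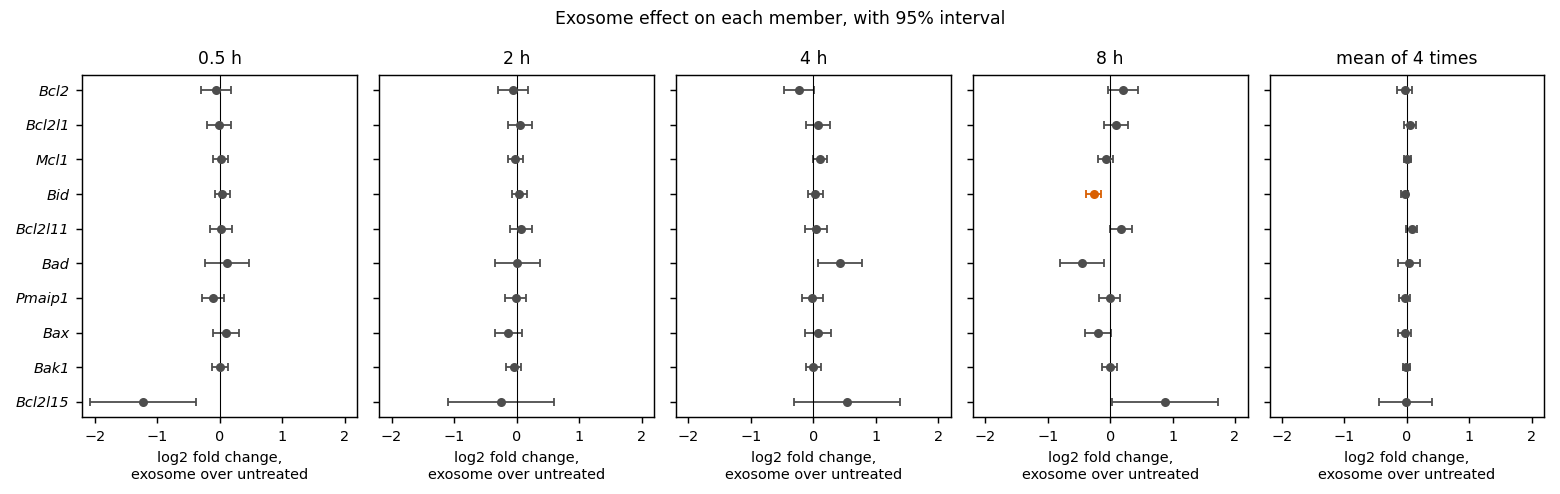
Log2 fold change of exosome-treated over untreated cells (horizontal axis) for each member at 0.5, 2, 4 and 8 h and for the mean of the 4 times, with bars for the 95% interval; orange marks the 1 called value. Bid at 8 h, at -0.26, is the called value, and the mean effects of 9 members lie between -0.04 and 0.07.

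The 8 h comparison depended on 1 library. Without untreated 8 h replicate 3, the untreated 8 h library without muscle transcripts, 4 members were called at 8 h. They were Bid (log2 difference -0.31 ± 0.06, adjusted p = 0.0027), Bad (-0.61 ± 0.18, adjusted p = 0.0174), Bax (-0.30 ± 0.10, adjusted p = 0.0368) and Bcl2 (0.34 ± 0.12, adjusted p = 0.0363). All genes called at 8 h then numbered 3903, against 67 of 14828 with the library in place. Bax, a pore-forming gene, was at 1662, 2021 and 1981 in exosome-treated cells at 8 h, against 2339.7, 2234 and 1911 in untreated cells. Bcl2 at 8 h was at 4886, 3707 and 3649 in exosome-treated cells, against 2974, 3485 and 4126 in untreated cells. Without that library the exosome effect differed between times for Bid (adjusted p = 0.0247) and Bad (adjusted p = 0.0398). With the library in place it did not (0.366 for both). Over all genes that test called 1348 without the library, against 0 of 14828 with it. For Bad, Bax and Bcl2, untreated 8 h replicate 3 was the one of its group nearest the exosome-treated libraries, and their groups overlapped.

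**Figure D3:**
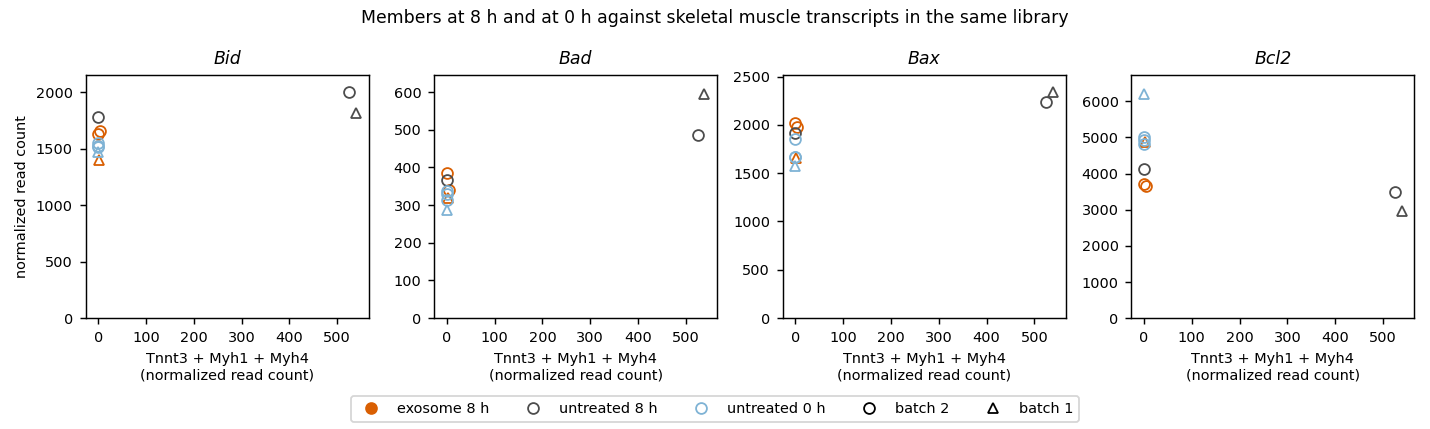
Normalized read count of Bid, Bad, Bax and Bcl2 (vertical axes) against the summed normalized read count of the muscle genes Tnnt3, Myh1 and Myh4 (horizontal axes) in the exosome 8 h, untreated 8 h and untreated 0 h libraries, with triangles for batch 1 and circles for batch 2. The 2 untreated 8 h libraries at 525 and 539 hold the highest Bad and Bax values. Untreated 8 h replicate 3 lies with the libraries low in these muscle genes.

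Time after the change to fresh medium gave 10 calls among the members in untreated cells against 0 h and 13 between successive times in the 2 arms, while exosomes gave 1. The comparisons with 0 h share the 4 untreated 0 h libraries, and successive comparisons share the libraries of the time between them. Of the 10 members, 1 was called at 0.5 h (0.189% of all genes), 2 at 2 h (1.83%), 1 at 4 h (1.19%) and 6 at 8 h (31.7%). In untreated cells 3 members were called for 2 h over 0.5 h (1.89% of genes), 3 for 4 h over 2 h (0.499%) and 1 for 8 h over 4 h (6.35%). In exosome-treated cells the counts were 2 (1.58%), 3 (1.19%) and 1 (0.0337%).

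**Figure D4:**
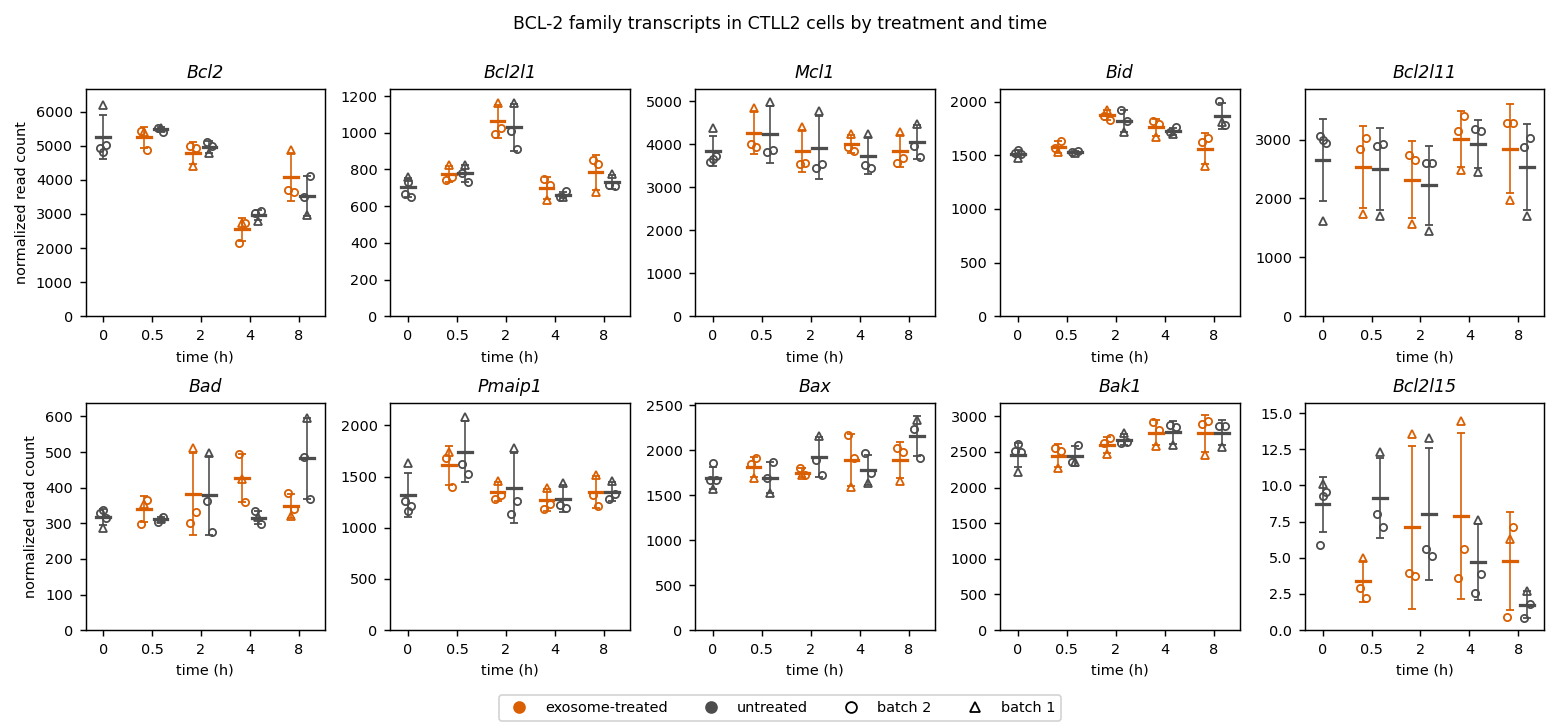
Normalized read count of each member (vertical axes from 0) by time in h (horizontal axes), exosome-treated libraries to the left of untreated ones, with triangles for batch 1, circles for batch 2, and a line and bar for the mean and SD. Bcl2 is lowest at 4 h, Bcl2l1 highest at 2 h and Pmaip1 highest at 0.5 h, in both arms.

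Bcl2, whose protein guards the outer membrane of resting and cytokine-fed T cells, fell between 2 and 4 h in both arms. It was at 4989, 4404 and 4937 in exosome-treated cells at 2 h, and at 2162, 2741 and 2742 in exosome-treated cells at 4 h. In untreated cells the values were 4790.3, 5119 and 4982 at 2 h and 3041, 2789.9 and 3077 at 4 h. No 4 h library reached any 2 h library. The log2 difference of 4 h over 2 h was -0.91 ± 0.12 with exosomes (limma adjusted p = 7.84e-05) and -0.74 ± 0.12 without (adjusted p = 0.00162). Both calls held in every alternative and every leave-out run. At 4 h Bcl2 was lower than the 0 h level of 6199, 4943, 4820.2 and 5006, by a log2 difference of -0.82 ± 0.11 in untreated cells (adjusted p = 6.54e-05). In exosome-treated cells it was higher again at 8 h than at 4 h (log2 difference 0.67 ± 0.12, adjusted p = 0.0202). That call was lost without exosome 4 h replicate 1 (0.56, adjusted p = 0.229) and without exosome 8 h replicate 3 (0.74, adjusted p = 0.0503). It was also lost with no batch term (adjusted p = 0.198) and without the 2 libraries low in genes at 0 (0.0792). Without the libraries with muscle transcripts the difference was 0.52, from 1 exosome 4 h library. Untreated cells at 8 h stayed below 0 h (log2 difference -0.58 ± 0.11, adjusted p = 0.0013). Without the libraries with muscle transcripts that difference was -0.31, from 1 untreated 8 h library.

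Bcl2l1 encodes BCL-XL, the pro-survival protein that activated T cells raise. It peaked at 2 h in both arms. Exosome-treated cells held 822, 742 and 759.5 at 0.5 h, 995, 1162 and 1027 at 2 h, and 749, 635 and 718 at 4 h. Untreated cells held 827, 779.6 and 732 at 0.5 h, 1164, 1009 and 914 at 2 h, and 649, 651 and 681 at 4 h. In each arm all 3 libraries at 2 h were above all those at 0.5 h and at 4 h. With exosomes the log2 difference was 0.45 ± 0.09 for 2 h over 0.5 h (adjusted p = 0.0082) and -0.60 ± 0.09 for 4 h over 2 h (adjusted p = 8.42e-04). Without exosomes it was 0.39 ± 0.09 (adjusted p = 0.0216) and -0.63 ± 0.09 (adjusted p = 7.86e-04). Untreated cells at 2 h were also above 0 h (log2 difference 0.54 ± 0.09, adjusted p = 7.79e-04), a call kept in every alternative and leave-out. The smaller step from 0.5 to 2 h in untreated cells was lost without untreated 0.5 h replicate 2 (adjusted p = 0.0789) or replicate 3 (0.132) and without untreated 2 h replicate 1 (0.156) or replicate 2 (0.0785). In exosome-treated cells that step was lost without exosome 2 h replicate 2 (adjusted p = 0.0888). With no batch term it was lost in both arms (0.0729 with exosomes and 0.145 without). Without the libraries with muscle transcripts the step from 0.5 to 2 h was 0.45 with exosomes, from 1 library at 0.5 h. Without exosomes that step was 0.40 and was not called (adjusted p = 0.0716). In that fit the 4 h over 2 h difference in exosome-treated cells was -0.49, from 1 library at 4 h.

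Mcl1, a gene T cells need for survival, passed the test in no time or exosome comparison. Its group means lay between 3839 ± 489.5 at 2 h and 4264 ± 502 at 0.5 h in exosome-treated cells and between 3736 ± 438 at 4 h and 4227 ± 658 at 0.5 h in untreated cells (SD, n = 3 each). Its log2 difference from 0 h in untreated cells was 0.11 ± 0.05 at 0.5 h (adjusted p = 1.00) and between -0.06 and 0.05 at the later times.

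Bid was higher at 2 h than at 0.5 h in both arms. It was at 1869, 1925 and 1829.7 in exosome-treated cells at 2 h, against 1532, 1565 and 1637 at 0.5 h (log2 difference 0.25 ± 0.06, adjusted p = 0.0224). In untreated cells it was at 1718, 1922 and 1817 at 2 h, against 1519, 1534 and 1542 at 0.5 h (log2 difference 0.25 ± 0.06, adjusted p = 0.0212). The libraries of the 2 times did not overlap in either arm. The call in exosome-treated cells was lost without exosome 0.5 h replicate 1 (adjusted p = 0.0777), 2 (0.0998) or 3 (0.056) and without exosome 2 h replicate 1 (0.0574) or 2 (0.224). The call in untreated cells was lost without untreated 0.5 h replicate 2 (0.120) or 3 (0.0979) and without untreated 2 h replicate 2 (0.126). Without the libraries with muscle transcripts the difference was 0.24 with exosomes, from 1 library at 0.5 h, and 0.22 without (adjusted p = 0.0797). Both calls were also lost with no filter on low values (0.0541 with exosomes and 0.0526 without) and with no batch term (0.232 and 0.238), and that with exosomes in batch 2 alone (0.106). Untreated cells were above the 0 h level of 1471 to 1550.3 by 0.27 ± 0.05 at 2 h (adjusted p = 0.0072) and 0.31 ± 0.05 at 8 h (adjusted p = 9.88e-04) on the log2 scale, while the difference at 4 h, 0.19 ± 0.05, was not called (adjusted p = 0.0934). The 2 h call was lost without untreated 2 h replicate 2 (adjusted p = 0.0602), with no batch term (0.137) and with only the 2 groups in the fit (0.0607). The 8 h difference was 0.22 without the libraries with muscle transcripts, from 1 untreated 8 h library. The exosome-treated 8 h libraries, at 1398 to 1662, overlapped the untreated 0 h ones.

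Bcl2l11 encodes BIM. It changed from 2 to 4 h in the opposite direction to Bcl2 and Bcl2l1, in both arms. Exosome-treated cells held 2739, 1565 and 2656 at 2 h and 3139, 2476 and 3406 at 4 h. Untreated cells held 1454, 2608 and 2602 at 2 h and 3183, 2452 and 3137 at 4 h. The lone batch 1 library was the lowest of each of these groups, and the times separated only once libraries were read within a batch. The log2 difference was 0.41 ± 0.09 with exosomes (adjusted p = 0.0166) and 0.44 ± 0.09 without (adjusted p = 0.015). Within batch 1 it was 0.66 with exosomes and 0.75 without, and within batch 2 it was 0.28 in both arms. With no batch term in the fit neither was called (adjusted p of 1.00 in both arms). The call without exosomes was lost without untreated 2 h replicate 1 (0.39, adjusted p = 0.0864) and untreated 4 h replicate 2 (0.31, adjusted p = 0.212), both of batch 1. The call with exosomes was lost without exosome 2 h replicate 1 (adjusted p = 0.055), 2 (0.0718) or 3 (0.0786), and without exosome 4 h replicate 2 (0.29, adjusted p = 0.136). The difference with exosomes was 0.34 without the libraries with muscle transcripts, from 1 library at 4 h.

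Pmaip1 encodes NOXA, the BH3-only partner of MCL1. It was higher at 0.5 h in untreated cells, at 2082, 1622 and 1527, against 1634, 1257, 1168 and 1215 at 0 h. Only the batch 1 library at 0 h, at 1634, was not below all 0.5 h libraries. The log2 difference was 0.38 ± 0.08 (adjusted p = 0.0299), and it was 0.35 within batch 1 and 0.38 within batch 2. Untreated cells at 2 h, at 1779, 1131 and 1258, were lower than at 0.5 h (log2 difference -0.34 ± 0.08, adjusted p = 0.0257). The 0.5 h call was lost in 6 leave-outs, without untreated 0 h replicate 2 (adjusted p = 0.0866), 3 (0.158) or 4 (0.116), or without untreated 0.5 h replicate 1 (0.362), 2 (0.224) or 3 (0.0566). It was also lost with no filter on low values (0.060), with no batch term (1.00) and without the 2 libraries low in genes at 0 (0.0592). The 2 h call was lost without untreated 0.5 h replicate 1 (0.150) or 2 (0.114) and without untreated 2 h replicate 2 (0.197) or 3 (0.0806), and the difference was -0.27 (adjusted p = 0.0628) without the libraries with muscle transcripts. It was lost as well with no batch term (0.876) and, just above the threshold of 0.05, with no filter on low values. Exosome-treated cells had 1744, 1685 and 1394 at 0.5 h and 1280.1, 1455 and 1321 at 2 h, a step that was not called (log2 difference in batch 1 -0.26 and in batch 2 -0.24).

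Bad, Bax and Bak1 were higher at 8 h than at 0 h in untreated cells, a comparison in which 31.7% of all genes were called. Bad was at 595, 487 and 368 at 8 h, against 287 to 338 at 0 h (log2 difference 0.57 ± 0.16, adjusted p = 0.0115). Bax was at 2339.7, 2234 and 1911 at 8 h, against 1573 to 1858 at 0 h (log2 difference 0.36 ± 0.10, adjusted p = 0.0083). Bak1, the other pore-forming gene, was at 2564, 2867 and 2870.5 at 8 h, against 2215 to 2614 at 0 h (log2 difference 0.18 ± 0.05, adjusted p = 0.0156). For Bad and Bax no 8 h library overlapped the 0 h libraries, and for Bak1 the lone batch 1 library at 8 h did. Without the libraries with muscle transcripts, which leave untreated 8 h replicate 3 alone, the log2 differences were 0.23 for Bad (adjusted p = 0.534), 0.15 for Bax (adjusted p = 0.524) and 0.19 for Bak1 (adjusted p = 0.230). Over all genes the calls at 8 h against 0 h then numbered 398, against 4702 with those libraries. The Bax call was lost without untreated 8 h replicate 1 (adjusted p = 0.0814) and the Bak1 call without replicate 2 (0.0625), with no batch term (0.136) and with only the 2 groups in the fit (0.0710). The Bad call was lost without untreated 8 h replicate 1 (0.0845) or 2 (0.0627) and without untreated 0 h replicate 1 (0.0507), and in batch 2 alone the difference was 0.37 (adjusted p = 0.0673). Bad was also called for 8 h over 4 h in untreated cells (log2 difference 0.58 ± 0.17, adjusted p = 0.0461), and 16 of 28 leave-outs ended that call. Among them were untreated 8 h replicates 1 (0.178) and 2 (0.192) and untreated 4 h replicates 2 (0.210) and 3 (0.119), and in the other 12 the adjusted p was at most 0.0564. Without the libraries with muscle transcripts the difference was 0.24 (adjusted p = 0.677), and in batch 2 alone it was 0.42 (0.142). The call was also lost with no filter on low values (0.0789), with no batch term (0.167) and without the 2 libraries low in genes at 0 (0.0511).

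Bcl2l15 fell at 8 h in untreated cells, to 2.70, 0.809 and 1.78, against 10.1, 5.89, 9.26 and 9.57 at 0 h. The groups did not overlap, and the log2 difference was -1.93 ± 0.39 (adjusted p = 0.0018), on a scale with 1 added to each value, which understates the change of low genes. The untreated 8 h libraries held 3, 1 and 2 reads, no more than the 3 reads that a library at 0 allows (2.43 to 2.70 normalized counts in these libraries), so the size of this difference depends on the 1 added. Exosome-treated cells at 8 h were at 6.27, 0.919 and 7.16. Without the libraries with muscle transcripts the untreated difference was -1.58, from 1 untreated 8 h library.

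The ratios of pro-survival to opposing members follow from these values and are given per kb with no test. Their size rests on the annotated exon lengths. Bcl2 over Bcl2l11 was 1.90 ± 0.49 at 2 h and 0.76 ± 0.19 at 4 h in exosome-treated cells, and 2.10 ± 0.69 at 2 h and 0.90 ± 0.09 at 4 h in untreated cells (SD, n = 3 each). The highest 4 h library, at 0.998 in untreated cells, was below the lowest 2 h library, at 1.60 in exosome-treated cells. Bcl2 over Bax was 0.38 ± 0.11 in exosome-treated cells and 0.29 ± 0.08 in untreated cells at 8 h, and 0.54 ± 0.10 at 0 h (n = 4). Mcl1 over Pmaip1 was lowest among the untreated times at 0.5 h (1.94 ± 0.08) and highest at 8 h (2.39 ± 0.14), and it lay between 2.13 and 2.53 in the 4 exosome-treated groups.

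The level of 6 members differed between batches, as did that of 57.6% of all genes. Bcl2l11 was higher in batch 2 in all 9 groups, by 1.29 to 1.86 times, with 2602 to 3406 in batch 2 and 1454 to 2476 in batch 1 (log2 difference, batch 2 over batch 1, 0.71 ± 0.04, adjusted p = 4.45e-13). No library of batch 2 overlapped one of batch 1. Mcl1 was lower in batch 2 in all 9 groups, at 3444 to 4012, against 4237 to 4986 in batch 1 (log2 difference -0.28 ± 0.03, adjusted p = 6.78e-09). Pmaip1 was lower in batch 2 in all 9 groups (log2 difference -0.29 ± 0.04, adjusted p = 1.14e-06), as was Bcl2l15 (-0.94 ± 0.20, adjusted p = 3.5e-04). Bak1 was higher in batch 2 in 8 of 9 groups (0.13 ± 0.03, adjusted p = 4.59e-04), as was Bid (0.07 ± 0.03, adjusted p = 0.0378). Bcl2, Bcl2l1, Bad and Bax did not pass this test. Each group has 1 batch 1 library, so the comparisons of treatment and time above are made with batch as a term in the fit.

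**Figure D5:**
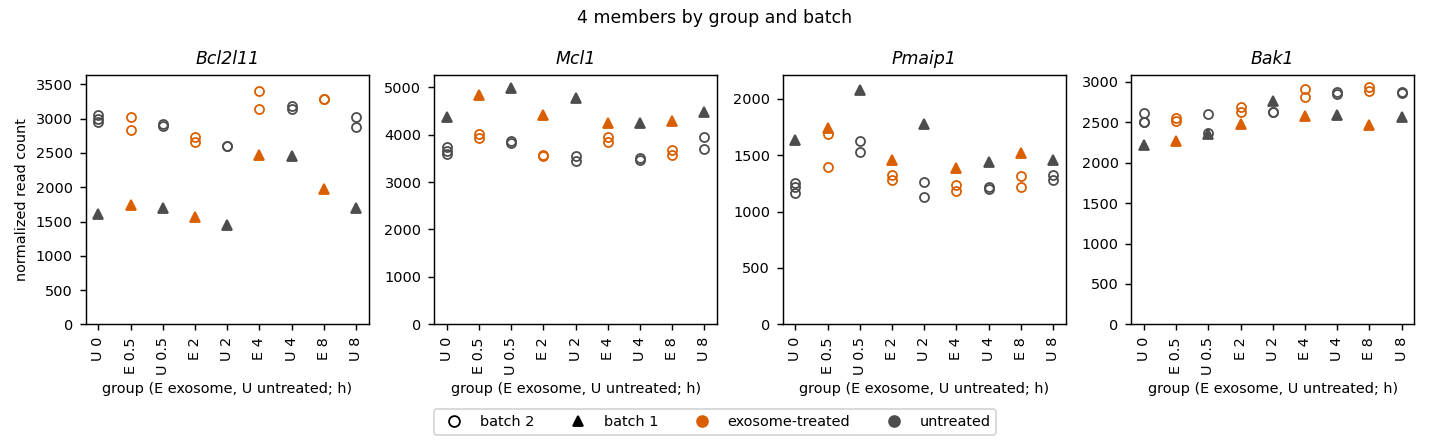
Normalized read count (vertical axes from 0) of Bcl2l11, Mcl1, Pmaip1 and Bak1 by group (horizontal axes; E exosome-treated, U untreated, time in h), with open circles for batch 2 and filled triangles for batch 1. Batch 2 lies above batch 1 in all 9 groups for Bcl2l11 and below it in all 9 for Mcl1 and Pmaip1.

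Other genes of the pathway were read from 4 lists. Of 17 further BCL-2 family genes 9 were tested, of 17 genes of the mitochondrial death pathway (channels of the outer membrane, released proteins, caspases and their inhibitors) all were, of 11 death receptor genes 10 were, and of 20 genes known to regulate the members in T cells all were. Bcl2a1a, Bcl2a1b and Bcl2a1d are not analysed here. No gene of the 4 lists was called for the mean exosome effect or at 8 h with exosomes. The gene with the smallest p in each list for the mean effect was Bcl2l13, a mitophagy receptor (log2 difference 0.05 ± 0.03, adjusted p = 0.973), the mitochondrial channel Vdac3 (-0.14 ± 0.05, adjusted p = 0.872), the TNF receptor Tnfrsf1a (0.08 ± 0.04, adjusted p = 0.973) and the kinase Pim2 (-0.15 ± 0.04, adjusted p = 0.300). At 8 h it was Bnip3l, a mitophagy receptor (-0.18 ± 0.09, adjusted p = 0.202), the caspase inhibitor Birc3 (0.29 ± 0.09, adjusted p = 0.0835), the TRAIL receptor Tnfrsf10b (0.49 ± 0.13, adjusted p = 0.0772) and Stat5a, which carries the interleukin-2 signal (0.25 ± 0.08, adjusted p = 0.0776). The median log2 difference of the lists at 8 h with exosomes was -0.09, -0.11, -0.03 and 0.17 in the order of the lists, beside 0.00 over all genes and -0.01 over the 10 members.

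Untreated cells at 8 h against 0 h had calls in 3 of the 4 lists, beside 31.7% of all genes. None of the 9 further family genes was called, and Bnip3 had the smallest p (log2 difference -0.28 ± 0.13, adjusted p = 0.0960). In the mitochondrial death pathway 2 of 17 rose and none fell, Diablo (0.28 ± 0.09, adjusted p = 0.0177), whose protein relieves caspases of their inhibitors, and Aifm1 (0.26 ± 0.07, adjusted p = 0.0102), a mitochondrial flavoprotein. Among death receptor genes 2 of 10 rose, Fasl (0.48 ± 0.10, adjusted p = 0.0018) and the adaptor Tradd (0.48 ± 0.12, adjusted p = 0.0048), and 1 fell, the caspase-8 inhibitor Cflar (-0.49 ± 0.10, adjusted p = 0.0022). Among the regulators 7 of 20 fell and none rose. The largest falls were in Jak3 (-0.75 ± 0.12, adjusted p = 5.01e-04), a kinase of the interleukin-2 receptor, Huwe1 (-0.58 ± 0.18, adjusted p = 0.0179), a ubiquitin ligase for MCL1, and Pim2 (-0.32 ± 0.08, adjusted p = 0.0058), a kinase that acts on BAD. The 2 untreated 8 h libraries with muscle transcripts enter all of these values, and their part was not tested for each gene.

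The genes whose levels followed a member most closely over the 28 libraries, after subtraction of the fitted batch difference, are given as a description, since libraries share depth and composition. Among 10090 genes, Atp11b (Pearson r = 0.921) and Kcnq5 (0.920) were among the 3 most like Bcl2. Pigk (0.891), Sla2 (0.887) and F2rl3 (0.886) were most like Bid. Mcl1 had looser companions, Samsn1 (0.782), Cd69 (0.773) and Ccdc71l (0.751).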

How the data were processed

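The values of the deposited table are read counts after scaling by the authors with a size factor for each library, and so a normalized signal. Tools named in the submitters' processing notes are CASAVA 1.8.4, STAR 2.4.2, featureCounts 1.5.0 and R 3.3.2 with DESeq2, on build GRCm38.p2. Values in a library step by a fixed amount, and in units of that step 100% were whole (tolerance 0.01 read); the size factors so recovered were 0.401 to 1.59. All 28 columns were used (0 unused). Libraries of 1 group differed by more than counting noise (chi-square per degree of freedom at least 1.32 over genes with 100 or more reads), so none was merged. Symbols and exon lengths came from GENCODE M21, which holds 30403 of the 30608 IDs, and 9 of 10 members had a RefSeq promoter entry.

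Testing used limma 3.58.1 in R 4.3.3 with a mean-variance trend on log2(value + 1). Genes needed 10 normalized counts in 3 libraries, the model held 9 groups and batch (18 residual degrees of freedom), and Benjamini-Hochberg adjustment covered 14828 genes, with calls below 0.05. The fit was tested on simulated data that held no batch difference. The changes planted there were larger than most of the member changes called here, so the simulation does not cover those. Alternatives were edgeR 4.0.16 and DESeq2 1.42.0 on recovered reads, other pseudocounts, filters, scaling and batch handling, and leave-outs. The members and lists were chosen with earlier results of these data known. All members were named in every comparison. From each list, for the mean and 8 h exosome effects and for untreated 8 h against 0 h, the text names up to 3 called genes of largest change, or failing any the gene of smallest p. For Bcl2, Mcl1 and Bid it names the 3 genes of highest Pearson r among those averaging 100 or more, except 1 that is not reported here.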

Additional observations from a re-analysis of the deposited data

Results flagged for a closer look

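In untreated cells at 0 h, the only group of 4 libraries and so the only one examined for a library that lies apart, replicate 1 stood apart for 2 of the 10 members. Bcl2 was at 6199 in that library, against 4820.2 to 5006 in the other 3, and Bcl2l11 was at 1611, against 2948 to 3060.3. The gap to the nearest library exceeded Dixon's 95% critical value for both, a limit that chance passes in about 1 group in 20. Replicate 1 is the batch 1 library of the group. For Bcl2l11 all 9 groups had the batch 1 library lowest, and for Bcl2 batch 2 was lower in 5 of 9 groups and higher in 4.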

How the results depend on the processing

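Exosome calls at a single time numbered 1 among the members (Bid at 8 h). They numbered 0 with no filter on low values (adjusted p = 0.063), a filter of 100 normalized counts (0.073), no batch term (0.222), batch 2 alone (0.379), only the 2 groups compared (0.284), untreated 4 h replicate 1 and exosome 8 h replicate 3 left out together (0.053), and the 8 libraries with muscle transcripts left out (0.997). The call stayed with TMM scaling, pseudocounts of 0.5 and 5, edgeR (0.0293), DESeq2 (0.0064) and without the shallowest library, exosome 0.5 h replicate 1 (0.0487). Calls between successive times numbered 13, and 4 with no batch term and 4 without the muscle libraries. Calls in untreated cells against 0 h numbered 10, and 4 without the muscle libraries. Leaving out 1 library at a time gave 0 to 4 exosome calls at a single time, 0 to 2 calls of an effect differing between times, 8 to 11 calls against 0 h and 9 to 15 between successive times. Of the 24 member calls, 9 held in every leave-out and 5 of those also in every alternative, and all 24 kept their sign without the muscle libraries. No called direction turned round in the 6987 recomputed member values, but many of these values could not turn. For Bid at 8 h the log2 difference stayed at -0.26 when a library of another time was left out or the filter was changed. The test of an effect differing between times has no direction. The total is therefore no measure of how firm the directions are. The runs without muscle libraries and without the shallowest library were chosen after seeing the data. Without the muscle libraries, exosome 0.5 h, exosome 4 h and untreated 8 h hold 1 library each. A call lost there cannot be set apart from lost replication.

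Same-numbered libraries deviated together with r above 0.1 in 68 of 108 pairs, all 68 among the 72 pairs of 1 batch. With the fitted batch difference removed, r ran from -0.47 to 0.41 and was above 0.1 in 21 pairs, so the numbers were not taken to pair the libraries. A fit with the replicate block and batch gave 0 exosome calls at a single time (Bid, adjusted p = 0.082), 9 calls against 0 h and 11 between successive times, without Bcl2 for exosome 8 h over 4 h (0.0580), Bad for untreated 8 h over 4 h (0.0650) and Pmaip1 for untreated 0.5 h over 0 h (0.173). An alternative without libraries whose 8 muscle markers summed above 50 gave no value, because all 28 libraries exceed it. Depth limits Bcl2l15, with 1 to 23 reads a library, and a library at 0 can lie up to 1.88 to 7.47 normalized counts. With 3 libraries a group, each p-value of the main fit set a difference against the spread between cultures, estimated over all 28 libraries.

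All-gene counts moved by over 1.5 times in each comparison under at least 1 alternative. They are given as the count with, in parentheses, its range over alternatives other than leave-outs of 1 library. For exosomes they were 36 (1 to 80) at 0.5 h, 28 (0 to 42) at 2 h, 23 (0 to 39) at 4 h, 67 (0 to 892) at 8 h, 68 (8 to 193) for the mean, 0 (0 to 5) for an effect differing between times and 5 (1 to 150) for one differing between batches. The lowest of the first 5 came with the filter of 100. For untreated cells against 0 h they were 28 (12 to 39), 272 (18 to 505), 177 (10 to 716) and 4702 (398 to 4738) at 0.5, 2, 4 and 8 h. Between successive times they were 280 (30 to 420), 74 (9 to 187) and 941 (3 to 1741) in untreated cells and 235 (16 to 333), 176 (15 to 612) and 5 (0 to 699) in exosome-treated cells. The lowest counts over time came with no batch term, except the 398, without the muscle libraries. At 8 h with exosomes the muscle libraries' absence gave 16, no batch term 29 and the replicate block 44. Leave-outs of 1 library gave 25 to 3903 genes for exosomes at 8 h and 2112 to 5679 for untreated 8 h against 0 h. They gave 16 to 3696 for untreated 8 h over 4 h and 0 to 1348 for an effect differing between times. The 1348 came without untreated 8 h replicate 3.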
